A study of Mus musculus with 8 samples.

Results

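The comparison described here is the weaning interval of mouse liver, from postnatal day 14 (PN14) to postnatal day 28 (PN28). It was defined by stage label alone and holds 4 of the 8 samples of the series, 2 at PN14 and 2 at PN28. All mice were wild-type FVB/NJ, an inbred strain, and all samples were poly(A) RNA of whole liver, so every cell type of the organ contributed reads. The remaining samples, 2 at embryonic day 18 (E18) and 2 from adults of 3 months, share the strain and tissue and are given only as levels on either side. No treatment or mutant allele is named for any of these 4 groups, and the labels give neither sex, litter, batch nor hour of collection. The study's methods name males for adult tissue of 3 months, and state that the study as a whole used both sexes. The question was which genes differ in the liver between a suckling pup and a juvenile that eats solid food.

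Mouse milk is rich in fat and poor in carbohydrate, and the suckling liver lives largely on fatty acid oxidation, ketone body synthesis and gluconeogenesis. Laboratory chow is rich in starch and low in cholesterol, and after weaning the liver makes fatty acids from glucose and sterols from acetyl-CoA. Over the same weeks hepatocytes leave the cell cycle, the last blood-forming cells leave the liver, imprinted growth genes are silenced, and growth hormone secretion and puberty begin to impose the sex-dependent expression of the adult.

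Between 83325445 and 106055723 reads were counted on genes in the 4 samples. Values per sample below are counts scaled to a common library total (CPM), after correction for library composition, which matters because albumin alone took 14.13 and 13.979% of the reads at PN14 and 10.977 and 9.812% at PN28. Defining hepatocyte markers were abundant at both stages. Of the 16 listed ones 4 were higher and 5 lower with 0 called in either direction by edgeR (9 at an unadjusted p under 0.05, and DESeq2 called 0 up and 0 down). The summed level of the list was lower at PN28, at 351431 and 354583 CPM at PN14 and 250139 and 233758 CPM at PN28. The sex-linked genes differed within a stage. Xist, the noncoding RNA of the inactive X chromosome, had 0.545 CPM in PN14 replicate 1, 570 CPM in PN14 replicate 2 and 0.975 and 0.685 CPM at PN28. Ddx3y, on the Y chromosome, had 54.2 and 5.75 CPM at PN14 and 54.7 and 55.8 CPM at PN28, and Eif2s3y, Kdm5d and Uty likewise had 1.07 to 3.96 CPM in PN14 replicate 2 and 10.7 to 56.1 CPM in the other 3 samples. PN14 replicate 2 therefore stands apart from the other 3 libraries in all 5 sex-linked genes. Results without it are given for some genes and lists, not for every one that changed on leaving it out. The methods call the samples biological duplicates and the labels do not say which animals they came from. The p-values below measure only the spread between such duplicates, and an exact permutation test of 2 against 2 samples could not give a p below 0.33.

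A gene was called increased (rose) or decreased (fell) where it differed more than 3-fold at an adjusted p under 0.1, by edgeR's quasi-likelihood test over all 8 samples with Benjamini-Hochberg adjustment, and is described as higher or lower where it passed the adjusted p alone. Of 17081 genes tested, 616 rose (3.61%) and 1022 fell (5.98%), and without the fold threshold 4309 were higher (25.2%) and 4889 lower (28.6%). The median log2 fold change over all tested genes was -0.05. The shares of all genes, 3.61% rising and 5.98% falling, are the background for each list count below. The neighbouring steps were unequal in size, with 13.8% of genes rising and 15.4% falling from E18 to PN14 and 0.767% rising and 2.24% falling from PN28 to adult, in comparisons that share the PN14 or the PN28 samples with the weaning interval. Of the 1638 called genes, 1625 had no overlap between the PN14 and PN28 samples. Among the called genes, 266 that rose and 178 that fell had at least 10 CPM in both samples of their higher stage. Without PN14 replicate 2 the counts were 658 and 810, and without PN14 replicate 1 they were 566 and 1252.

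The largest increases belonged to secreted proteins and to enzymes of lipid and steroid metabolism. Serpina4-ps1, a serpin gene annotated as a pseudogene, went from 0.578 and 0.617 to 824 and 383 CPM (log2 fold change 9.98 ± 0.57, adjusted p = 4.8e-06). Hamp encodes hepcidin, the hormone that limits iron uptake and release, and had 0.393 and 0.325 CPM at PN14 and 252 and 316 CPM at PN28, an increase of 787-fold (log2 fold change 9.62 ± 0.20, adjusted p = 4.2e-08). Both genes had under 1 CPM in each PN14 sample and at least 252 CPM in each PN28 sample. Mup3, a major urinary protein that carries pheromones, had 1.8 and 1.6 CPM at PN14 and 1073 and 1165 CPM at PN28 (log2 fold change 9.36 ± 0.29, adjusted p = 2.7e-07), and Mup21 went from 0.0764 and 0.0337 to 16.5 and 24.7 CPM. Cyp4a12a, a fatty acid hydroxylase of male liver, had 0.0109 and 0.0561 CPM at PN14 and 17.8 and 28.5 CPM at PN28, and Hsd3b5, a steroid dehydrogenase of male liver, had 0.251 and 0.191 CPM at PN14 and 59.3 and 81.7 CPM at PN28. The gene models of Hsd3b5 and Zfp697 overlap. Orm1, an acute phase glycoprotein, went from 2.47 and 3.24 to 402 and 520 CPM, and Ces1f, a carboxylesterase, from 3.36 and 3.26 to 494 and 458 CPM. Slc10a2, the sodium-dependent bile acid transporter best known from ileum and bile duct, was low at PN14 with 0.109 and 0.0785 CPM and had 16.7 and 12.9 CPM at PN28. Elovl3, which elongates very long chain fatty acids, completed the list at 1.49 and 1.47 CPM at PN14 and 179 and 343 CPM at PN28.

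The largest decreases belonged to an imprinted locus, to hydroxysteroid sulfotransferases and to granulocyte genes. H19, a maternally expressed noncoding RNA, had 8757 and 18957 CPM at PN14 and 4.2 and 2.41 CPM at PN28, a fall of 4179-fold (log2 fold change -12.03 ± 0.56, adjusted p = 1.6e-06). Igf2, the paternally expressed fetal growth factor beside it, had 582 and 2541 CPM at PN14 and 0.7 and 0.601 CPM at PN28 (log2 fold change -11.22 ± 0.80, adjusted p = 1.4e-05). Both PN14 samples lay far above both PN28 samples, yet PN14 replicate 2 had more H19 and Igf2 than replicate 1. The microRNA gene Mir675, which lies within H19 and cannot be counted apart from it here, went from 886 and 1863 to 0.6 and 0.308 CPM. Sult2a1, Sult2a5 and Sult2a6 transfer sulfate to bile acids and steroids, and their near-identical sequences make the split of reads among them uncertain. Sult2a6 had 93.7 and 93.5 CPM at PN14 and 0.0625 and 0.0699 CPM at PN28 (log2 fold change -10.44 ± 0.16, adjusted p = 5.8e-09), Sult2a1 had 39.8 and 39.1 CPM at PN14 and 0.0375 and 0.028 CPM at PN28, and Sult2a5 had 1497 and 1366 reads at PN14 and 0 and 1 at PN28. The ratio of Sult2a5 at PN14 to PN28 was 2398 (430 to 94752), a 95% interval of counting error only. Cyp3a16, a P450 of the perinatal liver, went from 94.3 and 109 to 0.288 and 0.266 CPM. The neutrophil granule genes Camp and Ngp went from 19.5 and 19.7 to 0.113 and 0.0979 CPM and from 36.8 and 39.7 to 0.313 and 0.294 CPM, and Rsph4a, a component of ciliary radial spokes, from 19.2 and 21.3 to 0.313 and 0.042 CPM.

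Ranked by CPM gained instead of by fold, the leading genes among those called included Serpina3k, Car3 and Fabp1. Serpina3k, an antichymotrypsin-like serpin, gained the most and went from 1225 and 1372 to 6981 and 9073 CPM. Car3, a carbonic anhydrase of liver and muscle, went from 461 and 450 to 7102 and 6868 CPM, and the fatty acid carrier Fabp1 from 2689 and 2363 to 7726 and 7607 CPM. Mgst1 (microsomal glutathione transferase), Cat (catalase) and Scp2 (sterol carrier protein) rose 4.22-fold, 3.53-fold and 3.94-fold. The largest losses among called genes after H19, Igf2 and Mir675 were Igfbp2, an IGF-binding protein, at 1560 and 1697 CPM at PN14 and 264 and 289 CPM at PN28, and Lpl, lipoprotein lipase, at 867 and 836 CPM at PN14 and 179 and 167 CPM at PN28. Lpl had 12.7 and 14.5 CPM in the adults, so that the fall from PN14 continued after PN28. Tfrc, the transferrin receptor, went from 377 and 364 to 29.2 and 47.6 CPM, and D0H4S114 from 648 and 546 to 171 and 117 CPM.

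The genes of fatty acid synthesis rose in part. Of the 25 listed lipogenic genes, 9 rose and 0 fell, with a median log2 fold change of 1.21, and 16 were higher and 3 lower at the adjusted p alone. Scd1, which introduces the double bond of monounsaturated fatty acids, had the largest fold change after Elovl3, given above, at 42.2 and 42 CPM at PN14 and 5860 and 3574 CPM at PN28, an increase of 112-fold (log2 fold change 6.81 ± 0.35, adjusted p = 3e-06). Fasn, the fatty acid synthase, had 99.3 and 91 CPM at PN14 and 883 and 658 CPM at PN28 (log2 fold change 3.02 ± 0.16, adjusted p = 3.1e-06). Elovl6, which elongates its product palmitate, went from 6.5 and 6.75 to 98.3 and 82.4 CPM. None of these 3 genes had overlapping groups, which holds for nearly all called genes. Acacb, the acetyl-CoA carboxylase whose malonyl-CoA restrains fatty acid import into mitochondria, went from 3.07 and 3.85 to 113 and 94.9 CPM (log2 fold change 4.91 ± 0.18, adjusted p = 6.8e-07). Thrsp, a protein induced together with lipogenesis, had 47 and 40.5 CPM at PN14 and 519 and 814 CPM at PN28 and 3265 and 2645 CPM in the adults. The increase was not shared by the whole pathway, since Srebf1, the transcription factor that drives many of these genes in response to insulin, had 618 and 709 CPM at PN14 and 527 and 547 CPM at PN28 and was lower with a log2 fold change of -0.30 ± 0.12.

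Scd2, the desaturase of fetal liver, was lower with 21.6 and 31.4 CPM at PN14 and 11.6 and 10.2 CPM at PN28 (log2 fold change -1.28 ± 0.20, adjusted p = 0.00092), opposite in direction to Scd1. At PN14 the summed level of the 25 genes was 6148 and 6149 CPM, and at PN28 it was 15425 and 12371 CPM, to which Scd1 contributed the largest single gain.

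Every one of the 24 tested genes of cholesterol synthesis and uptake was higher at PN28 at the adjusted p, and 13 rose more than 3-fold, with a median log2 fold change of 1.90. Over all genes tested 25.2% were higher. The summed level went from 1753 and 1769 to 3930 and 4178 CPM. Insig1, the endoplasmic reticulum protein that holds back sterol-sensing transcription factors, had 8.31 and 8.92 CPM at PN14 and 122 and 148 CPM at PN28, an increase of 15.7-fold (log2 fold change 3.97 ± 0.13, adjusted p = 2.8e-07). Sqle, squalene epoxidase, had 6.77 and 7.59 CPM at PN14 and 99.7 and 122 CPM at PN28, an increase of 15.4-fold (log2 fold change 3.95 ± 0.15, adjusted p = 6.8e-07). The 2 samples of each stage lay close together for both genes. Nsdhl, Cyp51 and Sc4mol, which remove methyl groups from lanosterol, went from 10.4 and 12 to 98.3 and 111 CPM, from 35.3 and 37 to 229 and 265 CPM and from 34.6 and 37.3 to 222 and 304 CPM. At E18 Sqle had 122 and 118 CPM, so that PN14 was the lowest of the 4 stages for this gene.

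Promoters of members that rose are shown because these genes moved together. They are RefSeq sequences of build GRCm38.p6, from 250 bases before to 50 bases after the annotated start, written 5′ to 3′ on the strand of the gene, and capitals mark each exact match to the CCAAT box (CCAAT, searched on both strands). The windows lie at chr5:28071162-28071461 on the plus strand for Insig1, chr8:64733529-64733828 on the minus strand for Sc4mol (Msmo1 in RefSeq) and chrX:72918271-72918570 on the plus strand for Nsdhl.

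Insig1: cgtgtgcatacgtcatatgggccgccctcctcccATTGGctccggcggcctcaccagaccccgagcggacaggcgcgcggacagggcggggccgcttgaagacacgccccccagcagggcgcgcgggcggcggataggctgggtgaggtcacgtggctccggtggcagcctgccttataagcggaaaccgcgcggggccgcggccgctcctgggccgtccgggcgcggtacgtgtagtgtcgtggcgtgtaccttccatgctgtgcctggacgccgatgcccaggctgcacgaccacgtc

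Sc4mol: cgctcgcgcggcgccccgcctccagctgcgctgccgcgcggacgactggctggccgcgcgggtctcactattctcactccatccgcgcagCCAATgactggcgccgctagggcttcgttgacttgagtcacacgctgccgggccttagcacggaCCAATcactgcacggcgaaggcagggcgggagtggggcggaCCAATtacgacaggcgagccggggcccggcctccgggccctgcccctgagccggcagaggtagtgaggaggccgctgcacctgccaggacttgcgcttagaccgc

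Nsdhl: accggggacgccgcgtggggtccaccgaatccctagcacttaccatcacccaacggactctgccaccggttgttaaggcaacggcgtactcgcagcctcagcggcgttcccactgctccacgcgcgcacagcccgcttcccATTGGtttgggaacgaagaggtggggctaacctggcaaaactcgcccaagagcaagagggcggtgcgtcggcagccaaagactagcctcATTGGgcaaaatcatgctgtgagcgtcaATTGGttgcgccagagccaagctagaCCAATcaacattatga

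The Insig1 window held 1 match, that of Sc4mol 3 and that of Nsdhl 4. A promoter was listed for 16 of the 24 sterol genes, and 15 of these (93.8%) held a CCAAT box, against 41.1% of the 27025 genes of the table. The palindrome CACGTG was in 4 of the 16 (25%), against 8.09% of all genes. The core of the sterol response element, searched as TCACNCCAC on both strands, was in 0 of the 16 and in 1.44% of all genes. A match describes these letters only, and no match says nothing of the factors that bind there. Among 19 lipogenic genes with a promoter, 12 (63.2%) held CCAAT and 3 (15.8%) CACGTG.

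**Figure D1:**
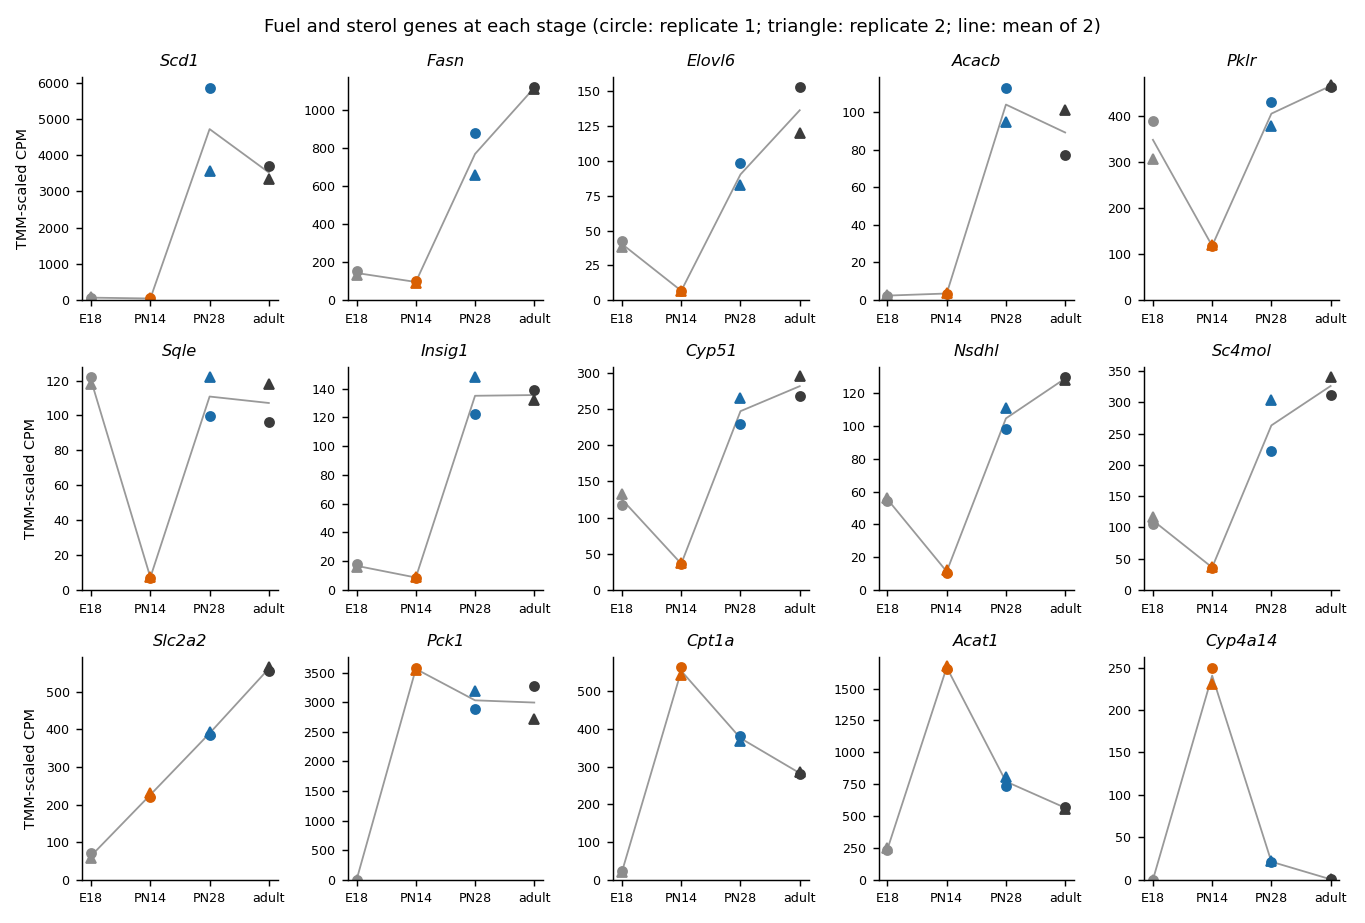
Composition-scaled CPM of 15 genes of fuel and sterol metabolism at E18, PN14, PN28 and in adults, on linear axes from 0. Circles are replicate 1, triangles replicate 2 and the line joins the means of 2 samples. Scd1, Fasn, Elovl6, Sqle, Insig1, Cyp51 and Nsdhl have their lowest mean at PN14 and a higher one at PN28, Cyp4a14 is highest at PN14, and Pck1 is at similar levels at PN14, PN28 and in adults.

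Genes of glucose use differed in both directions, mostly by less than 3-fold. Of 29 genes of glucose uptake and glycolysis, 2 rose (1 without PN28 replicate 2), against 3.61% of all genes, and 0 fell (1 without PN28 replicate 1), while 9 were higher and 7 lower at the adjusted p, with a median log2 fold change of 0.17. Pklr, the liver pyruvate kinase, had 117 and 119 CPM at PN14 and 432 and 380 CPM at PN28 (log2 fold change 1.79 ± 0.13, adjusted p = 1.8e-05), and its gene model overlaps that of Hcn3. Aldoc, an aldolase of minor level in liver, went from 6.57 and 7.12 to 18.9 and 24.8 CPM, and had a log2 fold change of 1.46, under 3-fold, without PN28 replicate 2. The fructose enzymes Khk and Dak were higher, with 412 and 388 CPM at PN14 and 689 and 704 CPM at PN28 and 152 and 160 CPM at PN14 and 467 and 444 CPM at PN28. Slc2a2, the glucose transporter of hepatocytes, had 221 and 231 CPM at PN14 and 385 and 394 CPM at PN28, a difference of 1.72-fold. Gapdh had 2.06 and 1.48 CPM at PN14 and 2.63 and 1.85 CPM at PN28. These counts are very low for this enzyme, and no level was read from them.

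None of the 16 genes of gluconeogenesis and glycogen was called by edgeR, 6 were higher and 4 lower (10 at an unadjusted p under 0.05, and DESeq2 called 0 up and 0 down). Pck1, the phosphoenolpyruvate carboxykinase that commits carbon to glucose, had 3584 and 3538 CPM at PN14 and 2877 and 3184 CPM at PN28 (log2 fold change -0.23 ± 0.24, adjusted p = 0.46), and Fbp1 had 1171 and 1485 CPM at PN14 and 1331 and 1358 CPM at PN28. G6pc, glucose-6-phosphatase, had 498 and 843 CPM at PN14 and 1036 and 612 CPM at PN28, so that the duplicates of both stages overlapped. Gbe1, the glycogen branching enzyme, was higher at 38.3 and 37.2 CPM at PN14 and 85.9 and 90.8 CPM at PN28 and Pcx, pyruvate carboxylase, at 526 and 581 CPM at PN14 and 874 and 902 CPM at PN28. Ppp1r3b, which brings protein phosphatase to glycogen, was lower at 499 and 362 CPM at PN14 and 282 and 175 CPM at PN28. Milk sugar yields galactose, and of its 4 enzymes Galk1, the galactokinase, fell from 216 and 230 to 72.9 and 71.9 CPM (log2 fold change -1.62 ± 0.10, adjusted p = 6.5e-06). Without PN14 replicate 2 its log2 fold change was -1.58, just under 3-fold, and no gene of the list was called. The next enzyme, Galt, had 50.4 and 52.6 CPM at PN14 and 71.5 and 67.8 CPM at PN28 and was higher with an adjusted p of 0.0048.

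Fatty acid oxidation and ketone synthesis held much of their level. Of 28 genes 0 were called by edgeR in either direction, 4 were higher and 7 lower at the adjusted p (11 at an unadjusted p under 0.05, and DESeq2 called 0 up and 0 down). Their median log2 fold change was -0.13. The summed level was 18214 and 17907 CPM at PN14 and 16796 and 17469 CPM at PN28. Cpt1a, the gate for fatty acids into mitochondria, was lower with 563 and 543 CPM at PN14 and 382 and 368 CPM at PN28 (log2 fold change -0.56 ± 0.10, adjusted p = 0.0015). Acat1 and Hadh, which act late in the mitochondrial spiral, were lower by 2.16-fold and 1.99-fold. The peroxisomal enzyme Hsd17b4 differed in the opposite direction to Cpt1a, with 307 and 307 CPM at PN14 and 474 and 466 CPM at PN28, and was higher.

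Targets of the fatty acid receptor PPARα were called in both directions. Among 27 tested, 2 rose and 3 fell, with a median log2 fold change of -0.21. So few calls, beside 3.61% rising and 5.98% falling over all genes, say nothing particular of the list. Cyp4a14, a fatty acid omega-hydroxylase, fell from 250 and 231 to 21 and 21.6 CPM (log2 fold change -3.50 ± 0.14, adjusted p = 7.7e-07) and had 0.739 and 0.482 CPM in the adults. Acot3, an acyl-CoA thioesterase, and Aqp7, a glycerol channel, went from 11.8 and 13.2 to 2.34 and 1.33 CPM and from 1.44 and 1.95 to 0.263 and 0.224 CPM. Fabp1, which rose, had 2689 and 2363 CPM at PN14 and 7726 and 7607 CPM at PN28, and had a log2 fold change of 1.51, under 3-fold, without PN14 replicate 2, which left 1 increase. Without PN28 replicate 1 the list likewise had 1 increase. The hormone Fgf21 had 8.94 and 5 CPM at PN14 and 3.29 and 2.06 CPM at PN28 and was lower. Its log2 fold change passed 3-fold without PN14 replicate 2 (-1.74) or PN28 replicate 1 (-1.77). Pdk4, which blocks pyruvate oxidation, was lower at 17.7 and 24.9 CPM at PN14 and 9.03 and 9.36 CPM at PN28. The receptor gene Ppara had 285 and 339 CPM at PN14 and 352 and 363 CPM at PN28.

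**Figure D2:**
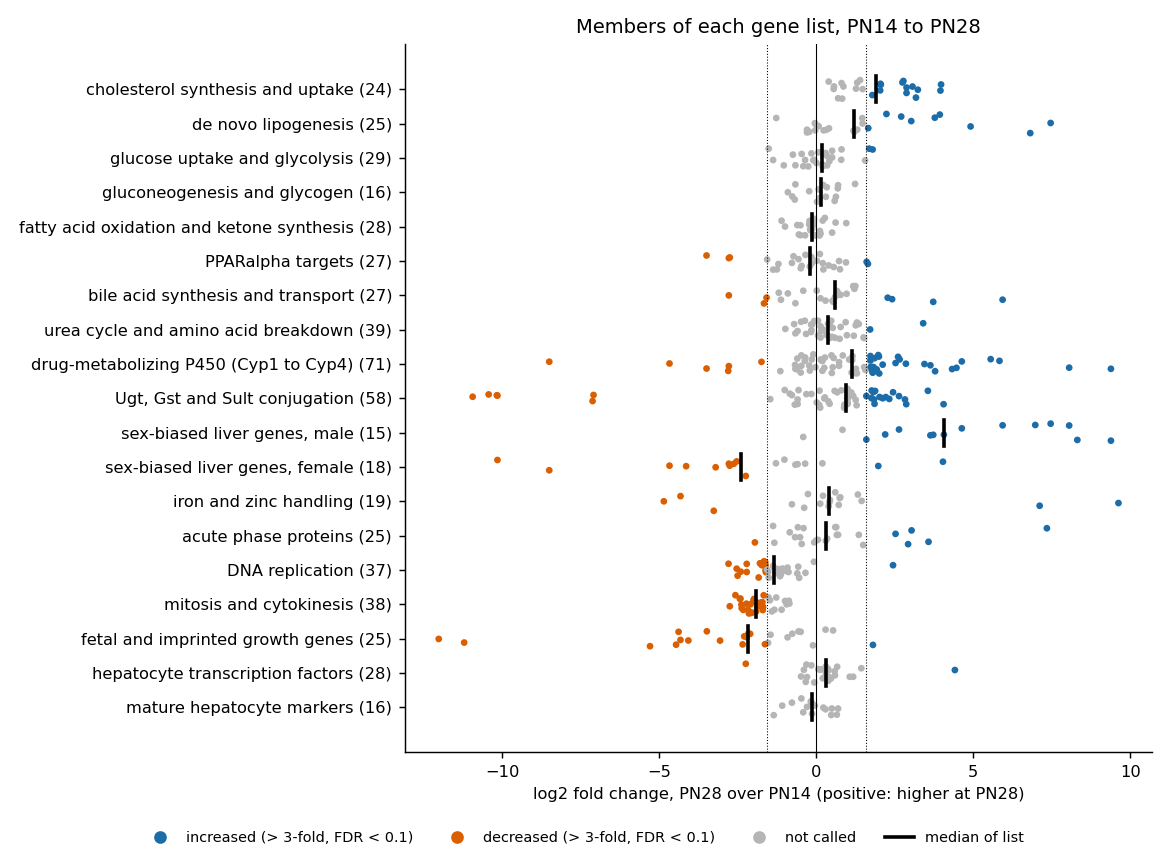
The log2 fold change from PN14 to PN28 of each tested member of 19 gene lists, with the number of tested members in parentheses. Blue points rose and orange points fell more than 3-fold at an adjusted p under 0.1, grey points were not called, dotted lines mark 3-fold and black bars the median. The sterol and male-biased lists lie to the right of 0, the mitosis and fetal lists largely to the left, and the oxidation list close to 0.

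The bile acid list changed in several directions. Of 27 genes 4 rose and 3 fell, and 16 were higher and 8 lower at the adjusted p. Cyp7a1, the rate-limiting enzyme of the classic pathway, fell from 122 and 111 to 49.3 and 28 CPM (log2 fold change -1.59 ± 0.28, adjusted p = 0.0017), a call just past 3-fold that was lost without PN14 replicate 1 (-1.52) or PN28 replicate 2 (-1.24). Enzymes of the alternative pathway rose, with Cyp27a1 at 97.2 and 91.3 CPM at PN14 and 436 and 471 CPM at PN28 and Cyp7b1 at 3.71 and 3.96 CPM at PN14 and 142 and 326 CPM at PN28. Baat, which joins bile acids to taurine, rose from 89.8 and 79.8 to 424 and 476 CPM. The uptake transporters Slco1a1 and Slco1a4 moved in opposite directions, from 69.3 and 75 to 947 and 959 CPM and from 294 and 262 to 44.9 and 35.6 CPM. Abcg5, which exports plant sterols and cholesterol with Abcg8, fell from 374 and 363 to 115 and 116 CPM, and the gene models of the pair overlap.

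Among 21 genes of lipoprotein assembly 1 rose and 1 fell, near the shares of all genes, 3.61% and 5.98%. Apoa4, an apolipoprotein of triglyceride-rich particles, went from 83.1 and 89.7 to 565 and 386 CPM (log2 fold change 2.46 ± 0.24, adjusted p = 8.4e-05), and Lpl was the gene that fell. Apoa1, the protein of high density lipoprotein, was lower at 24236 and 23848 CPM at PN14 and 10325 and 12327 CPM at PN28, a difference of 2.12-fold. Apoc3 and Apoa5 were higher at 980 and 1036 CPM at PN14 and 1960 and 2075 CPM at PN28 and at 1135 and 1249 CPM at PN14 and 2378 and 1951 CPM at PN28.

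In the list of 39 genes for the urea cycle and amino acid breakdown 2 rose (4 without PN14 replicate 2), 0 fell, 19 were higher and 5 lower. Both genes that rose were alanine transaminases. Gpt2, the mitochondrial form, had 38.8 and 35.5 CPM at PN14 and 356 and 430 CPM at PN28, an increase of 10.6-fold (log2 fold change 3.40 ± 0.14, adjusted p = 8e-07), and Gpt, the cytosolic form, had 136 and 156 CPM at PN14 and 470 and 486 CPM at PN28 (log2 fold change 1.71 ± 0.12, adjusted p = 1.6e-05). The groups were separated for both, as for nearly all called genes. Tat and Tdo2, which begin the breakdown of tyrosine and tryptophan, were higher by 2.44-fold and 2.55-fold. Of the urea cycle itself, Arg1 was higher at 1245 and 1167 CPM at PN14 and 1685 and 1957 CPM at PN28, while Cps1, the entry enzyme, had 3901 and 2937 CPM at PN14 and 3241 and 2973 CPM at PN28 and Asl had 448 and 469 CPM at PN14 and 387 and 429 CPM at PN28, neither past the adjusted p. Mat1a, which makes S-adenosylmethionine, was lower at 5563 and 5006 CPM at PN14 and 3501 and 3162 CPM at PN28.

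Genes of drug and steroid metabolism were called far more often than the average gene. Of 71 P450 genes of the families Cyp1 to Cyp4, 27 rose and 6 fell, with a median log2 fold change of 1.12, and of 58 Ugt, Gst and Sult genes 17 rose and 6 fell. Cyp2c29 had the largest gain in CPM among the called P450 genes, at 253 and 249 CPM at PN14 and 1868 and 1742 CPM at PN28, and Cyp2f2, a periportal P450, went from 132 and 99.7 to 1447 and 1732 CPM. Cyp4f14 and Cyp2d13 had the smallest adjusted p-values among the P450 genes that rose, at 23.6 and 21.1 CPM at PN14 and 522 and 461 CPM at PN28 and at 8.55 and 9.02 CPM at PN14 and 173 and 178 CPM at PN28. The Cyp2c, Cyp2d and Cyp3a genes are close copies, and reads may be split among them. Cyp3a16 fell as given above. In the conjugation list Ugt2b1 rose from 216 and 197 to 907 and 1159 CPM and Gstm6 from 5.77 and 5.03 to 69 and 57.2 CPM, whereas the genes that fell were Sult2a1 to Sult2a6. Sult2a7 was the only one of that cluster to rise, from 0.262 and 0.112 to 0.625 and 0.643 CPM (log2 fold change 1.27 and not called without PN14 replicate 2), and Sult2a4 had 160 and 133 reads at PN14 and 0 and 0 at PN28, a level at least 40.7-fold lower at PN28 with 3 reads per library as the floor.

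All 20 major urinary protein genes rose, against 3.61% of all genes. Their summed level went from 2.03 and 1.69 CPM at PN14 to 1118 and 1244 CPM at PN28, and was 2454 and 2436 CPM in the adults. Mup3 accounted for nearly all of the PN28 sum. At PN14, 11 of the 20 had no read in either sample, and their increases were at least 25.5-fold (Mup4) to 61.2-fold (Mup6). The genes are near-identical copies, several with nearly equal counts, so these are not 20 independent results. How reads matching several copies were counted is not given. The summed level and the share of Mup3 in it therefore describe these counts only.

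Most genes that adult males express more than females rose, and 10 of 18 that adult females express more fell. Of 15 male-biased liver genes 13 rose and 0 fell, with a median log2 fold change of 4.06, and of 18 female-biased genes 10 fell and 2 rose (1 rose without PN28 replicate 1), with a median of -2.40. Leaving out PN14 replicate 2, which carried the Xist reads, left 13 male-biased genes called increased and 10 female-biased genes called decreased. Cyp4a12a, Hsd3b5, Elovl3 and Cyp7b1 rose as given above, and so did Slco1a1 (log2 fold change 3.72 ± 0.19, adjusted p = 3e-06). C6, a complement component, went from 9.52 and 7.48 to 104 and 180 CPM. Serpina1e was the exception without any increase, at 55 and 55.3 CPM at PN14 and 34.6 and 47.6 CPM at PN28, and C4a was higher by 1.78-fold.

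Among the female-biased genes, Cyp2b9 had 103 and 109 CPM at PN14 and 26 and 4.71 CPM at PN28 (log2 fold change -2.79 ± 0.70, adjusted p = 0.011). The PN28 duplicates differed by several fold, with replicate 1 nearer to PN14, and the adults were lower still with 0.98 and 0.0602 CPM. Both PN28 libraries had low Xist and high Y-linked reads, and the study's methods name males for the adults. The course of the female-biased genes in livers without that pattern is not shown. Prom1 fell from 57.6 and 63.1 to 4.46 and 2.28 CPM, Hao2, a peroxisomal hydroxyacid oxidase, from 404 and 430 to 128 and 47.5 CPM, and Cux2, a transcriptional repressor of female liver, from 6.21 and 10.5 to 1.33 and 1.37 CPM. A1bg went the other way, with 7.81 and 6.89 CPM at PN14 and 195 and 44.4 CPM at PN28 and 0.98 and 0.452 CPM in the adults, so that PN28 was the highest of the 4 stages. It overlaps an antisense gene model. Xist fell in the fit of all samples (log2 fold change -8.41 ± 2.47, adjusted p = 0.022), and its log2 fold change was 0.61 with an adjusted p of 0.79 without PN14 replicate 2. The direction of the Xist change therefore rested on a single library.

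**Figure D3:**
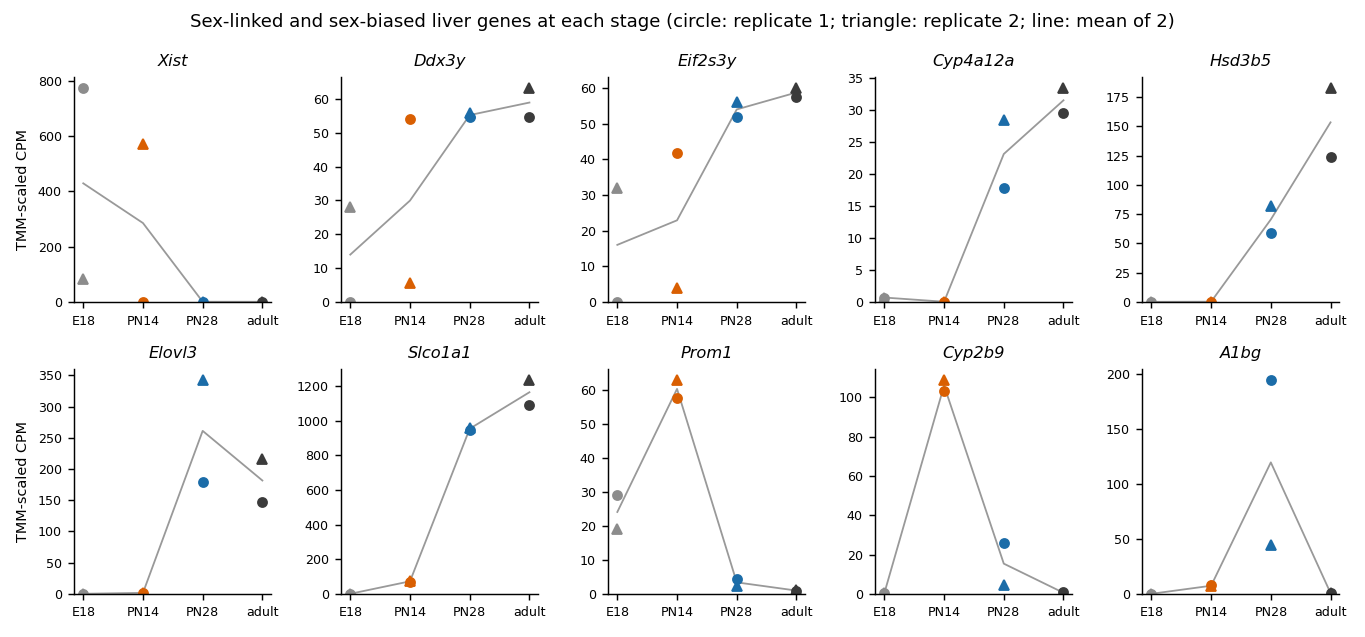
Composition-scaled CPM of 3 sex-linked and 7 sex-biased liver genes at each stage, on linear axes from 0. Circles are replicate 1, triangles replicate 2 and the line joins the means of 2 samples. Xist is high in PN14 replicate 2 at 570 CPM, where Ddx3y and Eif2s3y are low, while the other 7 genes show no such gap between the PN14 duplicates.

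Of the growth hormone and IGF axis, 2 genes rose and 4 fell among 23, against 3.61% and 5.98% of all genes. Igf1, the circulating growth factor made in response to growth hormone, had 721 and 766 CPM at PN14 and 1779 and 1522 CPM at PN28 and was higher by 2.22-fold, while Igf2 fell as given above. Igfbp1 fell from 287 and 317 to 66.8 and 35.9 CPM and Igfbp2 from 1560 and 1697 to 264 and 289 CPM. Ghr, the growth hormone receptor, was higher at 482 and 474 CPM at PN14 and 762 and 738 CPM at PN28. Bcl6, a repressor that favours male-biased expression, rose from 10.9 and 10 to 32 and 67.9 CPM (log2 fold change 2.25 ± 0.30, adjusted p = 0.00043). Socs2 and Socs3, feedback inhibitors of cytokine receptors, were called decreased and increased, but their PN28 duplicates were far apart (28.5 and 6.36 CPM and 14.6 and 41.7 CPM), and without PN28 replicate 2 their log2 fold changes were -1.11 and 0.92, neither called. Socs3 was not called without PN14 replicate 1 either (1.57), so that 1 increase was left in the list without either library.

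Hepcidin stood out in the iron list. Hamp and its copy Hamp2 rose, Hamp2 from 0.273 and 0.415 to 52.6 and 42.4 CPM, and both overlap a further gene model. Adult Hamp was 2006 and 1968 CPM, above PN28. Regulators of hepcidin were higher by less than 3-fold, with Bmp6, the ligand that induces it, at 1.16 and 1.32 CPM at PN14 and 2.8 and 3.4 CPM at PN28 and Tfr2, the sensor of iron-loaded transferrin, at 411 and 433 CPM at PN14 and 631 and 646 CPM at PN28. Tfrc, the receptor for iron uptake, fell by 9.65-fold, and Trf, transferrin, was lower at 53703 and 56962 CPM at PN14 and 32416 and 32184 CPM at PN28. The metallothioneins Mt1 and Mt2, which bind zinc and copper, fell from 150 and 138 to 7.59 and 6.73 CPM and from 24.9 and 25.7 to 0.75 and 0.993 CPM (log2 fold change -4.86 ± 0.23, adjusted p = 1.6e-06). In all, 2 of the 19 genes of iron and zinc handling rose and 3 fell, against 3.61% and 5.98% of all genes.

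Among 25 acute phase genes 5 rose and 1 fell. The 5 were Orm1, Orm2, Orm3, Saa1 and Saa2, members of 2 families of close copies, with Saa1 at 2.69 and 3.03 CPM at PN14 and 21.4 and 46.7 CPM at PN28. Lcn2, which sequesters bacterial iron carriers and is also a neutrophil product, fell from 26.1 and 32.4 to 8.14 and 6.91 CPM. Hp, haptoglobin, and Hpx, hemopexin, were lower at 6380 and 6299 CPM at PN14 and 2509 and 2510 CPM at PN28 and at 8503 and 8493 CPM at PN14 and 5359 and 5262 CPM at PN28.

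Genes of cell division were mostly lower. In the list of 38 mitotic genes 28 fell and 0 rose, and all 38 were lower at the adjusted p, against 28.6% of all genes. The median log2 fold change was -1.91. Top2a, the topoisomerase of chromosome condensation, had 67.1 and 69.9 CPM at PN14 and 10.8 and 9.39 CPM at PN28 (log2 fold change -2.76 ± 0.11, adjusted p = 7e-07), and Cdk1, the mitotic kinase, had 38.4 and 43.2 CPM at PN14 and 8.54 and 7.11 CPM at PN28 (log2 fold change -2.38 ± 0.16, adjusted p = 1.1e-05). The PN28 level was still above the adult one, which was 1.46 and 1.52 CPM for Top2a and 1.41 and 1.24 CPM for Cdk1. Aurkb, Prc1 and Birc5 of the mitotic spindle and cytokinesis fell by 5.99-fold, 5.23-fold and 5.42-fold. Mki67, the common marker of cycling cells, went from 53.5 and 63.1 to 19.6 and 14 CPM, a call that was lost without PN28 replicate 2 (log2 fold change -1.58). Of 37 DNA replication genes 14 fell and 1 rose. Mcm6 and Mcm5, subunits of the replicative helicase, fell from 57.1 and 55.6 to 10 and 6.1 CPM and from 58.5 and 55.3 to 15.1 and 9.26 CPM, and Rrm2, which supplies deoxynucleotides, from 12.7 and 12.9 to 2.74 and 2.07 CPM. Without PN28 replicate 2 the replication count was 8. The gene that rose was Mcm10, an origin factor, with 27.4 and 28.6 CPM at PN14 and 143 and 162 CPM at PN28 and 299 and 335 CPM in the adults. Its gene model overlapped no other in GENCODE of GRCm38. In the cell cycle control list 4 of 23 fell and 0 rose. Cdkn1a, the inhibitor p21, fell from 116 and 82.2 to 18.3 and 8.83 CPM and Ccne1, cyclin E, from 16.9 and 15 to 3.34 and 5.01 CPM.

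The promoters of Mcm5 and Mcm6 are shown for their matches to the core of the E2F site, the motif of S-phase genes, searched as TTTCCCGC or TTTGGCGC on both strands and marked in capitals. The windows are RefSeq sequences of GRCm38.p6 at chr8:75109259-75109558 on the plus strand for Mcm5 and chr1:128359656-128359955 on the minus strand for Mcm6.

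Mcm5: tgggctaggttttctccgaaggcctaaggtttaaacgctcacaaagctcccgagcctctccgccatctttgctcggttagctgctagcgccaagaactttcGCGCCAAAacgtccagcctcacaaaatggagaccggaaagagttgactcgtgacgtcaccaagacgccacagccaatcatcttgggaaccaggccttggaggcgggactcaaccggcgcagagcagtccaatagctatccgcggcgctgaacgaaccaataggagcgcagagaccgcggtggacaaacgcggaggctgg

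Mcm6: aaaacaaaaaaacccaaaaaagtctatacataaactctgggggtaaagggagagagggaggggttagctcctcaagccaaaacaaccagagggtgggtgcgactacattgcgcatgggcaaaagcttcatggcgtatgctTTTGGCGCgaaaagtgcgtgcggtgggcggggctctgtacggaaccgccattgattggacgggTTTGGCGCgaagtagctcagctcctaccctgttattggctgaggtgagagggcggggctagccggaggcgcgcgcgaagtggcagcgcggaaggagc

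Mcm5 held 1 match, on the opposite strand, and Mcm6 held 2. Of 30 replication genes with a listed promoter 10 held an E2F core (33.3%), against 1.8% of all genes, and 19 held CCAAT (63.3%), against 41.1%. The 16 sterol and 19 lipogenic promoters held 0 E2F cores.

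Fetal and imprinted growth genes fell, 15 of 25, against 5.98% of all genes, and 1 rose, with a median log2 fold change of -2.17. Afp, alpha-fetoprotein, the main serum protein of the fetus, went from 103 and 181 to 7.65 and 6.45 CPM (log2 fold change -4.33 ± 0.30, adjusted p = 1.2e-05) after 35366 and 27508 CPM at E18. Gpc3, a proteoglycan that restrains liver growth, fell by 21-fold, and the imprinted genes Meg3 and Cdkn1c fell by 22.2-fold and 11.2-fold. The gene that rose was Zbtb20, a repressor of Afp, from 1.8 and 1.53 to 6.56 and 4.99 CPM. Its gene model overlaps several others on both strands, and its log2 fold change without PN28 replicate 1 was 1.58, just under 3-fold, which left 0 increases. Not every imprinted gene fell, since Slc38a4, an amino acid transporter, was higher at 665 and 753 CPM at PN14 and 954 and 1096 CPM at PN28.

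Of 28 transcription factors that define hepatocytes, 11 were higher and 5 lower at the adjusted p, 1 rose (2 without PN28 replicate 2) and 1 fell. These calls are near the shares of all genes, 3.61% and 5.98%, and say nothing particular of the list. Esrrg, an orphan nuclear receptor, fell from 9.1 and 10.5 to 2.05 and 2.07 CPM. Hnf4a had 677 and 578 CPM at PN14 and 686 and 845 CPM at PN28, and Cebpa had 457 and 440 CPM at PN14 and 546 and 629 CPM at PN28 and was higher. Nr5a2 and Foxa1 were higher by 2.25-fold and 2.09-fold. None of 16 splicing factors was called by edgeR, 3 were higher and 7 lower (10 at an unadjusted p under 0.05, and DESeq2 called 0 up and 0 down). Without PN28 replicate 1 the 3-fold line was passed by Mbnl2 (1.61), and without PN14 replicate 1 by Esrp1 (-1.76). Esrp2, an epithelial splicing regulator, was higher at 72.7 and 79.8 CPM at PN14 and 121 and 124 CPM at PN28 (log2 fold change 0.69 ± 0.09, adjusted p = 0.00029), Mbnl2 at 11.2 and 11.6 CPM at PN14 and 25.2 and 34.8 CPM at PN28, and Rbfox2 and Srsf1 were lower at 71.9 and 66.8 CPM at PN14 and 39.4 and 39 CPM at PN28 and at 185 and 169 CPM at PN14 and 122 and 124 CPM at PN28. The close paralog Esrp1 stayed under 1 CPM in all 4 samples.

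The markers of the lobule's zones did not move as blocks. Of 15 pericentral genes 2 rose and 1 fell, and of 15 periportal genes 4 rose and 0 fell, against 3.61% and 5.98% of all genes. Slc13a3, a dicarboxylate transporter, fell from 200 and 259 to 26.9 and 25.7 CPM, and Slc1a2, a glutamate transporter, rose from 19.3 and 27.6 to 95 and 91.3 CPM, although both are pericentral. Glul, glutamine synthetase, was higher at 182 and 206 CPM at PN14 and 276 and 281 CPM at PN28 and Cyp1a2 at 459 and 470 CPM at PN14 and 1047 and 1138 CPM at PN28. Among the periportal genes, Pigr, which carries immunoglobulin A into bile, rose from 34.8 and 65.8 to 1420 and 1467 CPM (log2 fold change 4.84 ± 0.30, adjusted p = 7.7e-06). Of 19 clock genes 3 rose and 2 fell, against the same shares of all genes. Nr1d1, a repressor of the clock, went from 14.8 and 12.3 to 103 and 177 CPM, Dbp, an output factor, from 16.8 and 16.5 to 42.1 and 141 CPM, and Per1, a core repressor, from 75.5 and 65.5 to 10.2 and 7.02 CPM. Without PN28 replicate 2 Dbp had a log2 fold change of 1.34 and 1 clock gene was called increased. The hour of collection is not given, so stage and time of day cannot be told apart for these genes. The same limit holds for every other gene of the comparison whose level varies with the hour.

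Neutrophil and B-cell markers had the lowest ratios of summed level, PN28 to PN14, among the marker lists, 0.0386 and 0.404, against 0.877 for erythroid markers. Of 16 neutrophil markers 13 fell, against 5.98% of all genes, and 0 rose. The summed level of the list went from 190 and 205 to 8.65 and 6.59 CPM. Ngp, S100a9 and Ltf, granule and calcium-binding proteins, had 36.8 and 39.7, 53.7 and 60.2 and 21.1 and 20.4 CPM at PN14 and 0.313 and 0.294, 1.86 and 1.31 and 0.338 and 0.154 CPM at PN28. Elane and Mpo, made only in immature granulocytes, fell from 1.91 and 2.61 to 0.225 and 0.182 CPM and from 6.57 and 7.12 to 0.0875 and 0.028 CPM. Csf3r, also in the list and under 1 CPM in each sample, had 0.796 and 0.673 CPM at PN14 and 0.688 and 0.378 CPM at PN28 and did not pass the test. In a whole organ, fewer cells of a type and less RNA per cell cannot be told apart. Erythroid markers had largely fallen before the interval, from 16148 and 20190 CPM in all at E18 to means of 128 CPM at PN14 and 112 CPM at PN28. Of 19 tested 9 fell (2 with limma on log2(RPKM + 0.1) and 1 with at least 10 counts in every sample). At the adjusted p 17 of the 19 were lower, against 28.6% of all genes, and 1 was higher. The median log2 fold change was -1.54 for erythroid markers and -1.71 for B-cell markers. Slc4a1, the anion exchanger of red cells, fell from 3.56 and 4.94 to 0.825 and 0.56 CPM, while Alas2, the first enzyme of erythroid heme synthesis, was higher at 35 and 29 CPM at PN14 and 49.5 and 55.5 CPM at PN28. B-cell markers summed to 18.8 and 20.0 CPM at PN14 and 7.78 and 7.90 CPM at PN28, and 7 of 13 tested fell, including Igll1 and Rag1 of B-cell precursors, Rag1 with 79 and 54 reads at PN14 and 1 and 0 at PN28.

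Endothelial and mesenchymal markers were mostly lower, and Kupffer cell markers were divided. Of 16 sinusoidal endothelial markers 15 were lower at the adjusted p and 1, Lyve1, fell by 5.44-fold (2 with Stab2 without PN14 replicate 2), and the sum went from 1048 and 1038 to 559 and 551 CPM. Stab2, a scavenger receptor of these cells, was lower at 161 and 151 CPM at PN14 and 52.5 and 53.2 CPM at PN28, and Pecam1 at 47.6 and 48.7 CPM at PN14 and 19.2 and 20.8 CPM at PN28. In the stellate and mesenchymal list 4 of 16 fell, and the sum was 1448 CPM in PN14 replicate 1, 2014 CPM in PN14 replicate 2 and 779 and 809 CPM at PN28. Acta2, a marker of contractile cells, and the fibrillar collagens Col1a1 and Col3a1 had 7.54 and 32.2, 73.5 and 137 and 557 and 825 CPM at PN14 and 2.61 and 3.9, 27.3 and 29.8 and 225 and 233 CPM at PN28. These genes were highest in PN14 replicate 2, and without it the log2 fold changes were -1.22, -1.37 and -1.29, and none of the 4 stellate calls was left. Lrat, the retinol esterase that defines quiescent stellate cells, had 48.2 and 50.4 CPM at PN14 and 41.8 and 50.7 CPM at PN28. Of 10 bile duct markers 3 fell (1 without PN14 replicate 2). Krt19 among them had 2.47 and 10.2 CPM at PN14 and 2.34 and 1.55 CPM at PN28 and a log2 fold change of -0.34 without PN14 replicate 2, not called. The Kupffer cell list summed to 792 and 727 CPM at PN14 and 891 and 755 CPM at PN28. Clec4f, its most specific marker, had 172 and 151 CPM at PN14 and 247 and 207 CPM at PN28 and was higher, and Marco, a scavenger receptor, was the only one of 16 to fall, from 66.2 and 66.6 to 17.2 and 14.3 CPM. The part of these cell type markers in the results above was not tested.

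**Figure D4:**
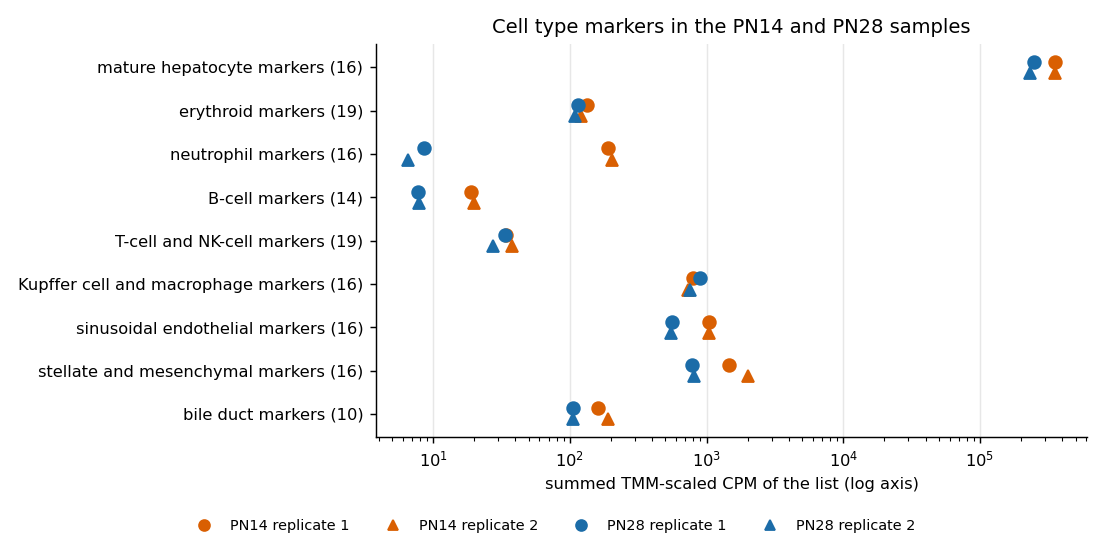
Summed composition-scaled CPM of each cell type marker list in the 4 samples, on a log axis, with the number of genes in parentheses. Orange is PN14, blue is PN28, circles are replicate 1 and triangles replicate 2. The neutrophil sum lies at 190 and 205 CPM at PN14 against 8.65 and 6.59 CPM at PN28, the stellate sum is spread at PN14, and the Kupffer cell sums overlap between stages.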

How the data were processed

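RNA-seq values of 8 whole-liver samples were used, 2 per stage, grouped by sample label. The authors deposited raw read counts for 22059 genes per sample and RPKM (reads scaled by gene length and library size), which were proportional to the counts within each sample up to a factor per gene. The submitters' processing notes name the mouse build mm9. The aligner, counting program, annotation and use of strand are not given in the sources used here. The labels name Trizol and the study's methods name RNeasy for extraction.

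Counts were fitted with edgeR 4.0.16 (R 4.3.3) by the quasi-likelihood test, with filterByExpr, TMM scaling and 1 coefficient per stage over all 8 samples. The contrast was PN28 minus PN14, and calls needed a Benjamini-Hochberg adjusted p (FDR) under 0.1 and more than 3-fold. The filter removed 4978 genes. SE is the absolute log2 fold change divided by the square root of F. Alternatives used DESeq2 1.42.0 and limma 3.58.1, on log2(RPKM + 0.1), other filters, scalings and thresholds, and fits leaving out a library or adding a replicate block. The fit was tested on simulated data. Both thresholds are named by the study, the FDR with DESeq, but its first figure legend pairs 3-fold with a P value of Fisher's exact test. The counts here are therefore not on the study's own criterion.

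The comparison and the 39 gene lists were chosen with earlier results of these data known, and 8 further lists and some genes, including uncalled list members named for contrast, after values were seen. Named genes were the 10 largest increases and decreases among called genes with at least 10 CPM in both samples of the higher stage and no overlap, the 10 largest gains and losses in mean CPM among called genes, and up to 8 members described per list. Symbols are those of the files, with newer names matched by alias. Overlaps of gene models were read from GENCODE release M21 of GRCm38, where 83 of 205 named genes overlap another model, and reads of such genes cannot be told apart without strand. Promoters were taken from RefSeq of GRCm38.p6. Neither is the build of the files, so the coordinates given are those of promoter windows in GRCm38.p6. Depth was 83325445 to 106055723 reads, and 3 reads per library (0.0283 to 0.036 CPM) was the floor. Intervals of few reads are exact 95% intervals of counting error only. Some list members are not reported here by name.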

Additional observations from a re-analysis of the deposited data

How the results depend on the processing

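Starting from 616 increases and 1022 decreases, DESeq2 gave 600 and 917, an FDR of 0.05 gave 585 and 934, library size alone 608 and 1037, median-ratio scaling 645 and 972, no filter 631 and 1104, and a fit of the 4 PN14 and PN28 samples 571 and 874. A minimum of 10 counts in every sample, which tests fewer genes, gave 343 and 452. limma on log2(RPKM + 0.1), which differs in test, scaling and pseudocount, gave 400 and 469. A threshold of 2-fold gave 1207 and 2112, and no fold threshold 4309 and 4889. Leaving out 1 library gave 566 to 658 increases and 810 to 1252 decreases. Without PN14 replicate 2, 536 increases and 751 decreases were shared with the fit of all samples and 7 called genes changed sign. The median of all genes moved by -0.01 with library size alone and by 0.04 with median-ratio scaling.

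The labels do not say whether replicate numbers pair the samples, and with 2 samples per stage the correlations below cannot settle it. Deviations of same-numbered PN14 and PN28 samples correlated at 0.0193 over 8726 genes, with -0.414 to 0.161 over the 6 pairs of stages. With a replicate block 606 genes rose and 1009 fell, Krt19 and Col3a1, at -1.58 each, and Dmbt1, at -4.96, were not called, and 1 bile duct marker fell. Of 146 named called genes the other 143 kept their call under the block.

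Some directions turned. Fbp1 was at -0.01 with 10 counts in every sample and with limma, at -0.00 with no filter, and at -0.15 to 0.19 on leaving out 1 library. On leaving out 1 library, Cps1 ranged from -0.33 to 0.08 (without PN14 replicate 1), G6pc ranged from -0.14 (without PN28 replicate 1) to 0.72, with -0.03 without PN14 replicate 1, Kdm5d from -0.17 (without PN14 replicate 2) to 3.25 and Lrat from -0.24 to 0.04 (without PN28 replicate 1). Among called genes, Xist ranged from -9.41 to 0.61 and Dmbt1 from -8.32 to 8.51, each turning without PN14 replicate 2. The fitted values of Dmbt1 without that library rest on 0 reads at PN14. The cause was not tested. Genes with few reads are limited by depth, with 27 of the increases holding at most 10 reads in all at PN28 and 32 of the decreases at most 10 at PN14.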

Other observations

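Further gene groups were examined after the values had been seen, and they are given as descriptions. Of 25 clade A serpins 9 rose and 0 fell (1 without PN14 or PN28 replicate 1), led after Serpina4-ps1 by Serpina12, an insulin-sensitizing serpin, from 1.79 and 1.79 to 122 and 147 CPM. Several of the 9 are close copies of each other in the Serpina3 cluster, between which the counting could split reads. Of 22 complement genes 5 rose, all of the membrane attack complex, with C9 from 227 and 183 to 1045 and 1716 CPM and C8a from 303 and 275 to 1255 and 1374 CPM. Among 17 carboxylesterases 8 rose and 15 were higher, with Ces3a from 40.8 and 37.2 to 742 and 861 CPM and Ces3b from 3.49 and 2.59 to 255 and 230 CPM. Of 28 alcohol and aldehyde dehydrogenases and aldehyde oxidases 8 rose and 0 fell (1 without PN14 replicate 1), with the retinal dehydrogenase Aldh1a1 from 80.9 and 53.9 to 1045 and 1039 CPM and the aldehyde oxidase Aox3 from 117 and 97.1 to 1156 and 1464 CPM. Among 11 Slco transporters 5 rose and 1 fell, with Slco2b1 from 17.6 and 21.8 to 252 and 231 CPM. The broad protease inhibitor Mug1 rose from 15.6 and 12.8 to 412 and 505 CPM, and the epidermal growth factor receptor Egfr from 56.2 and 51.5 to 388 and 447 CPM.

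Of 26 genes of protein folding in the endoplasmic reticulum 20 were higher, against 25.2% of all genes, and 5 rose. Sdf2l1 went from 34.3 and 23 to 113 and 180 CPM and Derl3 from 1.31 and 1.21 to 14.2 and 45.6 CPM. The chaperone Hspa5 had 1769 and 1217 CPM at PN14 and 2460 and 3805 CPM at PN28 and was higher by 2.1-fold. PN28 replicate 2 was above replicate 1 and PN14 replicate 1 above replicate 2 in each of these 3 genes. Without PN28 replicate 2, as without PN14 replicate 2, 3 of the 26 were called.

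Collagen genes were mostly lower, with 12 of 44 called decreased and 2 increased (1 without PN14 replicate 1). The count of decreases was 6 without PN14 replicate 2 and 17 without PN14 replicate 1. Eln, elastin, fell from 188 and 277 to 40.1 and 43.2 CPM, with PN14 replicate 2 the higher, as in the summed level of the collagens, 3192 and 3793 CPM at PN14.

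Some large changes concerned genes outside any list. Inhbb, an activin subunit, fell from 34.6 and 63 to 0.825 and 0.797 CPM, Pcp4l1 from 179 and 157 to 8.2 and 13.2 CPM, Slc25a4, the ADP/ATP carrier of muscle, from 111 and 116 to 12.7 and 14.2 CPM, and the steroid dehydrogenase Hsd3b1 from 19.3 and 20.1 to 0.55 and 0.378 CPM. Nox4, an NADPH oxidase, rose from 0.164 and 0.213 to 11 and 14.9 CPM and had 87.7 and 101 CPM in the adults. Dmbt1 had 0 CPM in PN14 replicate 1 and 63.3 CPM in PN14 replicate 2, so that its called decrease rested on PN14 replicate 2 and its fitted log2 fold change without that library was 8.51. Cxcl9, an interferon-induced chemokine, had 5.37 and 6.12 CPM at PN14 and 43.5 and 13.7 CPM at PN28, and its log2 fold change was 1.25 and not called without PN28 replicate 1.

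Among 60 tested olfactory receptor genes 16 were called increased. Their counts were very low, and neighbouring genes had identical ones, as in Olfr639 and Olfr642, each with 0 and 0 reads at PN14 and 3 and 3 at PN28. The count was 1 without PN14 replicate 1, 2 without PN14 replicate 2, and 10 and 9 without PN28 replicates 1 and 2, and DESeq2 called 8.

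Of 19 T-cell and NK-cell markers 1 rose (0 without PN14 replicate 1) and 1 fell, a count that was 2 and 0 without PN14 replicates 1 and 2 and 3 and 0 without PN28 replicates 1 and 2. Among 14 tested pancreatic acinar markers Cela1 rose from 21.5 and 21.7 to 115 and 118 CPM and Pnliprp1 fell from 10.9 and 10.2 to 0.2 and 0.252 CPM (2 fell without PN14 replicate 1). None of 76 cytosolic ribosomal protein genes was called by edgeR or DESeq2, and 46 had an unadjusted p under 0.05. At the adjusted p 5 were higher and 44 lower with a median log2 fold change of -0.49. Their sums were low for so many such genes, with means of 1666 CPM at PN14 and 1477 CPM at PN28. How reads matching several copies were counted is not given, so the shift describes these counts only.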
